A study of Homo sapiens with 27 samples.

Results

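FOXO1, FOXO3, IRS2, INSR, PIK3IP1, CCNG2, SESN1, TXNIP and ARRDC4 were chosen by symbol, with earlier results of these data known, as FOXO factors and genes known to respond to FOXO factors, starvation or nutrient supply. All 9 were found among the 36536 genes of the table, each in 1 row. All 9 passed the filter on low counts and were among the 15575 genes tested. They were followed by RNA-seq of polyadenylated RNA in MCF10A, a cell line of breast epithelium that is established and does not form tumours.

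Every culture was seeded in growth medium that held 20 ng/ml epidermal growth factor (EGF), serum, hydrocortisone, cholera toxin and 10 µg/ml insulin. After 6 h this was replaced by medium free of growth factors, and whether that medium held insulin is not given in the sources used here. The T0 cultures carried no ligand and were labelled as the control at 0 h, after 18 h without growth factors. The other 8 groups then received fresh factor-free medium and were collected 24 h later. They were given phosphate-buffered saline (PBS), EGF, oncostatin M (OSM, a relative of interleukin-6), transforming growth factor beta (TGFB), EGF+OSM, EGF+TGFB, OSM+TGFB or EGF+OSM+TGFB, with each ligand at 10 ng/ml. There were 3 libraries per group and 27 together. The labels do not say that these were separate cultures, so p-values measure the spread between libraries, which may be technical.

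FOXO proteins are forkhead transcription factors that stay in the nucleus and activate their targets when insulin and growth factor signalling is low. When a receptor such as the insulin receptor or the EGF receptor activates PI3K and then AKT, AKT phosphorylates FOXO proteins and they leave the nucleus. Their known targets include the insulin receptor and its adaptor IRS2, which feed back on the pathway, and inhibitors of growth and of the cell cycle. TXNIP and ARRDC4 belong to the same arrestin family and restrain glucose uptake. They are known targets of MondoA, a sensor of sugar phosphates that binds paired E-boxes together with MLX. The RNA level of a FOXO gene does not show where its protein is, and protein was not measured.

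The genes lie on 7 chromosomes of GRCh38, with spans, exons and introns included, as in GENCODE v44. FOXO1 spans chr13:40555667-40666641 on the minus strand and FOXO3 chr6:108559835-108684774 on the plus strand. IRS2 spans chr13:109752695-109786583, INSR chr19:7112255-7294414 and PIK3IP1 chr22:31281594-31292534, all on the minus strand. CCNG2 spans chr4:77157207-77433388 on the plus strand and SESN1 chr6:108984309-109094846 on the minus strand. TXNIP spans chr1:145992435-145996579 on the minus strand and ARRDC4 chr15:97960703-97973833 on the plus strand. FOXO3 has a near copy, FOXO3B, on chromosome 17, which held 4.76 to 8.08 CPM over the libraries. How reads were split between the copies is uncertain.

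The 250 bases before each start were searched on both strands for 3 motifs in the RefSeq promoter table (GRCh38.p14), which held 16 start sites for the 9 genes. The forkhead motif GTAAACA was present in 2.98% of the 34943 promoters of the table, and the single E-box CACGTG in 6.32%. The paired E-box, CACGNG followed by any 5 bases and CACGNG again, in which N is any base, can overlap the single E-box and was present in 0.0458%, or 16 promoters. Among the 9 genes, the promoters of TXNIP, ARRDC4 and CCNG2 held a match, and the other 6 held none of these letters in this window. The matches are shown in capitals because MondoA and FOXO factors are known to bind such motifs. At 1 of its 2 start sites, TXNIP held the forkhead motif at bases -124 to -118 from the start and the paired E-box at -88 to -72. Its other start site held no match. ARRDC4 held a single E-box at bases -210 to -205, and CCNG2 at -30 to -25. The windows are chr1:145996580-145996829 (minus strand), chr15:97960453-97960702 (plus strand) and chr4:77156957-77157206 (plus strand).
TXNIP: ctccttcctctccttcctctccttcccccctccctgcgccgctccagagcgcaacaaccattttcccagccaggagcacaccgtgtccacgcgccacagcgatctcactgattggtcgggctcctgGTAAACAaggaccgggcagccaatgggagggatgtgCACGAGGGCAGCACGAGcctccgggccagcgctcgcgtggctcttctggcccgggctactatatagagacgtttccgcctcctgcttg
ARRDC4: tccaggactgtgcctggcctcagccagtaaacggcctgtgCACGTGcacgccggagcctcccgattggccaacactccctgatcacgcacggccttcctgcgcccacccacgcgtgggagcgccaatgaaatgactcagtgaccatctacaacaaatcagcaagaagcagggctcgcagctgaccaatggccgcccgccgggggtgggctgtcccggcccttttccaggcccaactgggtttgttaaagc
CCNG2: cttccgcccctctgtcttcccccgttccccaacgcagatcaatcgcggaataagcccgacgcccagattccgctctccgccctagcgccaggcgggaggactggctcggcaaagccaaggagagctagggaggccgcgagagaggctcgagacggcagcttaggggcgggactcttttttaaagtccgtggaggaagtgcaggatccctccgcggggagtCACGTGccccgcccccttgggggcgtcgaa
A match is a description of the letters, and no binding was measured.

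The shallowest library held 30.1 M counts (M, mega), the median library 39.5 M and the deepest 52.9 M, and each of the 27 libraries was nearest to its own group. Levels are counts per 1 M counts (CPM) of the library size, scaled by edgeR's trimmed mean of M-values (TMM). In bulk RNA, fewer cells of a type and less RNA per cell cannot be told apart. Of 8 markers of mammary epithelium, 8 had a median over 1 CPM. Of 10 markers of other cell types, DCN and CD14 were the 2 with a median over 1 CPM. The fibroblast markers COL1A2 and LUM, the endothelial markers VWF and CDH5, and the leukocyte markers PTPRC and CD3E had medians at or near 0, and VWF reached 3.52 CPM in 1 library. The fibroblast marker PDGFRB had a median of 0.399 CPM (up to 1.04), and the endothelial marker PECAM1 0.791 CPM (up to 2.06). The sum of the 10 was 122 to 132 CPM in the PBS libraries and 16.8 to 22.1 CPM in the EGF libraries, and its part in the results was not tested. MKI67, a gene of dividing cells, averaged 21.6 ± 7.09 CPM in PBS, 143 ± 11.6 CPM in T0, 518 ± 39.0 CPM with EGF, 309 ± 55.5 CPM with OSM and 13.9 ± 2.10 CPM with TGFB (SD, n = 3). The part of cell division in the results was not tested either.

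EGF lowered 9 of the 9 genes against PBS, where 38.6% of all genes tested were called lower. OSM lowered 7, where 29.8% were called lower. TGFB raised 3 (19.9% of all genes called higher) and lowered 2 (15.8% called lower), by smaller amounts. Of the 9, PIK3IP1, TXNIP, FOXO1 and FOXO3 fell furthest with EGF. PIK3IP1 and CCNG2 were the 2 not called with OSM. CCNG2 fell with EGF alone and was not called against PBS with EGF+OSM or EGF+TGFB. A gene counts as called when its p from edgeR's quasi-likelihood test, adjusted by Benjamini-Hochberg over the 15575 genes, is under 0.05. All fold changes below are from that fit. The comparisons with PBS share the same 3 PBS libraries.

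**Figure D1:**
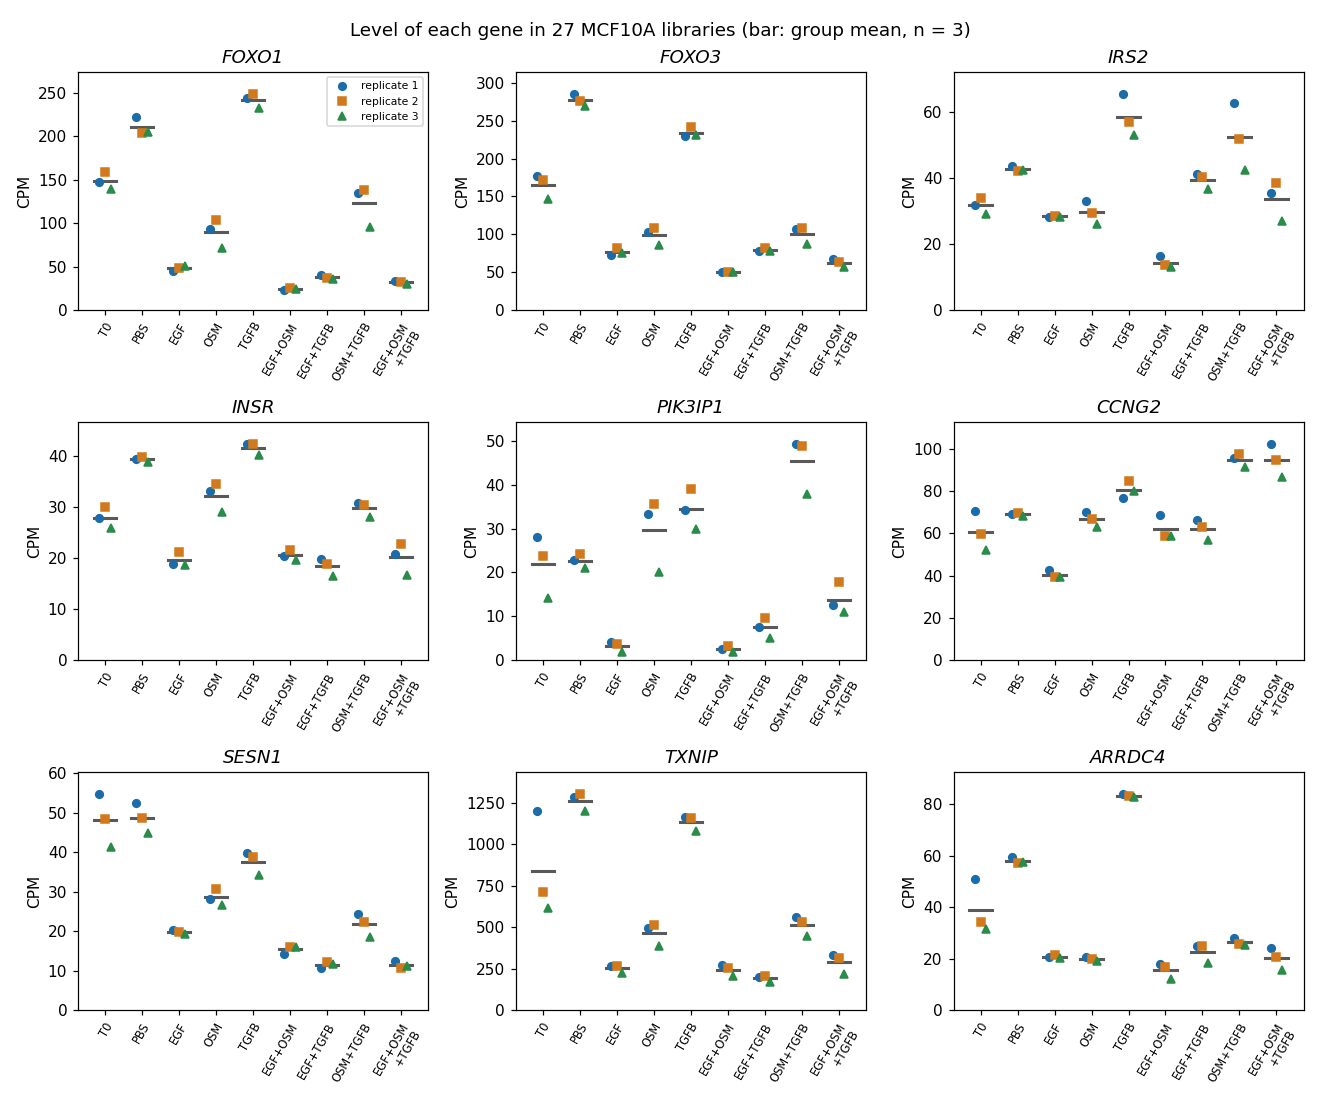
Level of each of the 9 genes in the 27 libraries, in CPM on a linear axis that starts at 0, with 1 panel per gene and the 9 groups along the horizontal axis. Points are libraries, with a symbol for each replicate number, and horizontal lines are group means (n = 3). FOXO1 stood at 204 to 223 CPM with PBS and at 45.1 to 50.2 CPM with EGF, and the EGF-containing groups were low for most genes.

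FOXO1 held 223, 204 and 205 CPM in the PBS libraries. It held 45.1, 48.7 and 50.2 CPM with EGF and 93.1, 104 and 70.9 CPM with OSM. With EGF+OSM it held 22.9, 25.6 and 24.1 CPM, the lowest of the 9 groups. These 4 groups did not overlap, and EGF and OSM alone each left FOXO1 below every PBS library. The change with EGF was -2.13 ± 0.12 on the log2 scale (SE, n = 3 per group), or 4.39-fold lower, with an adjusted p of 3.34e-13. With OSM it was -1.24 ± 0.12 (adjusted p = 3.32e-09), and with EGF+OSM -3.12 ± 0.13 or 8.70-fold lower (adjusted p = 7.75e-16). TGFB libraries held 244, 249 and 233 CPM, all above the PBS libraries, but the change of 0.20 ± 0.11 was not called (adjusted p = 0.177). From the highest group mean (TGFB, 242 CPM) to the lowest (EGF+OSM, 24.2 CPM), FOXO1 spanned 10.0-fold.

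FOXO3, a second FOXO factor, held 286, 276 and 270 CPM with PBS. It held 72.5, 81.9 and 75.2 CPM with EGF, and 103, 108 and 85.4 CPM with OSM. The PBS libraries were far above both ligand groups, and the EGF libraries were all below the OSM libraries. The change was -1.86 ± 0.08 with EGF (adjusted p = 1.47e-15) and -1.49 ± 0.08 with OSM (adjusted p = 8.46e-14). With EGF+OSM the libraries held 50.5, 49.9 and 49.5 CPM, below every other group. With TGFB, FOXO3 held 230, 242 and 232 CPM, below the PBS libraries, a change of -0.24 ± 0.08 (adjusted p = 0.0224). That call was lost without PBS replicate 1, TGFB replicate 1 or TGFB replicate 3, with changes of -0.22, -0.23 and -0.23.

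Among the members of the insulin pathway, INSR encodes the insulin receptor, IRS2 an adaptor that links the receptor to PI3K, and PIK3IP1 a membrane protein that inhibits PI3K. INSR held 39.5, 39.8 and 38.8 CPM with PBS, 18.8, 21.3 and 18.6 CPM with EGF, and 33.1, 34.4 and 29.1 CPM with OSM. These groups did not overlap, and INSR fell by 1.01 ± 0.09 with EGF (adjusted p = 9.12e-11) and by 0.29 ± 0.08 with OSM (adjusted p = 0.00433). All 4 groups with EGF lay between 16.5 and 22.8 CPM, each overlapped the next of the 4 in the order of levels, and all were below the T0 libraries. Its whole span of group means, 2.26-fold, was the narrowest of the 9 genes.

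IRS2 held 43.5, 42.2 and 42.3 CPM with PBS, 28.2, 28.6 and 28.2 CPM with EGF, and 33.1, 29.4 and 26.1 CPM with OSM. Both ligands left every library below PBS, and EGF and OSM overlapped. The change was -0.59 ± 0.13 with EGF (adjusted p = 0.000212) and -0.53 ± 0.13 with OSM (adjusted p = 0.000817). With TGFB the libraries held 65.5, 56.8 and 52.9 CPM, all above PBS, a rise of 0.45 ± 0.12 (adjusted p = 0.00558). EGF+OSM gave the lowest values, 16.3, 13.5 and 13.0 CPM, and did not overlap any other group.

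PIK3IP1 was the member with the largest span, 17.7-fold between group means. It held 22.9, 24.3 and 20.9 CPM with PBS and 4.09, 3.75 and 1.83 CPM with EGF, which did not overlap. The change with EGF was -2.80 ± 0.32, or 6.96-fold lower (adjusted p = 9.74e-08). With OSM the libraries held 33.4, 35.7 and 20.0 CPM, on both sides of PBS, and the change of 0.39 ± 0.27 was not called (adjusted p = 0.214, 95% interval -0.17 to 0.95). It was called higher with the replicate number as a block (0.35, adjusted p = 0.0325). OSM was 3.19 ± 0.32 higher than EGF for this gene (adjusted p = 3.88e-08), the widest difference between those ligands among the 9 genes. The library numbered 3 was the lowest of its group in 9 of 9 groups for PIK3IP1, and likewise for INSR and TXNIP. It was the lowest in 8 groups for IRS2 and ARRDC4, in 7 for FOXO3 and CCNG2, and in 6 for FOXO1 and SESN1. The fit with 1 mean per group holds no term for the replicate number.

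CCNG2 encodes cyclin G2, a cyclin linked to cell cycle arrest, and SESN1 encodes sestrin 1, a stress-induced inhibitor of mTORC1 that is also a p53 target. CCNG2 held 69.1, 69.8 and 68.2 CPM with PBS, 42.6, 39.1 and 39.1 CPM with EGF, and 69.9, 66.7 and 63.0 CPM with OSM. EGF libraries were below all others of the series for this gene, whereas OSM overlapped PBS. It fell by 0.78 ± 0.09 with EGF (adjusted p = 1.06e-08), and the OSM change was -0.05 ± 0.08 (adjusted p = 0.602, 95% interval -0.23 to 0.12). SESN1 held 52.4, 48.7 and 44.7 CPM with PBS, 20.2, 19.8 and 19.2 CPM with EGF, and 28.2, 30.8 and 26.6 CPM with OSM. Those 3 groups were apart, with changes of -1.30 ± 0.10 for EGF (adjusted p = 6.17e-12) and -0.77 ± 0.09 for OSM (adjusted p = 1.06e-07).

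TXNIP encodes the thioredoxin-interacting protein, an arrestin that binds thioredoxin and promotes the uptake of glucose transporters from the cell surface. Its libraries held 1287, 1304 and 1199 CPM with PBS, 267, 265 and 227 CPM with EGF, and 493, 514 and 386 CPM with OSM. The groups did not overlap, and the change was -2.32 ± 0.20 with EGF (adjusted p = 1.68e-09) and -1.44 ± 0.19 with OSM (adjusted p = 1.71e-06). ARRDC4, the related arrestin, held 59.5, 57.3 and 57.8 CPM with PBS, 20.8, 21.7 and 20.3 CPM with EGF, and 20.8, 19.8 and 19.0 CPM with OSM. Here EGF and OSM overlapped, with changes of -1.48 ± 0.16 (adjusted p = 2.73e-08) and -1.55 ± 0.16 (adjusted p = 2.31e-08), and the difference between them was -0.07 (95% interval -0.42 to 0.27). With TGFB, ARRDC4 held 84.1, 83.2 and 83.1 CPM, above every other library, a rise of 0.52 ± 0.15 (adjusted p = 0.00945). TXNIP held 1164, 1161 and 1081 CPM with TGFB, below every PBS library, with a change of -0.15 ± 0.19 that was not called (adjusted p = 0.579).

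Counted over the 9 genes, EGF lowered 9 and raised 0, where 34.9% of all genes were called higher. The median change of the 9 was -1.48 on the log2 scale, and that of all genes -0.07. PIK3IP1 lay furthest down the ranking, with 2.51% of genes at or below its change. It was followed by TXNIP at 4.28%, FOXO1 at 5.18% and FOXO3 at 6.90%, while IRS2 stood at 27.7%. OSM lowered 7 and raised 0, where 33.5% of all genes were called higher, and the median of the 9 was -0.77 against 0.00 for all genes. With the replicate number as a block, PIK3IP1 was called higher with OSM. TGFB raised ARRDC4, IRS2 and CCNG2 and lowered FOXO3 and SESN1. The median of the 9 with TGFB was 0.20, against -0.01. The TGFB count fell from 5 to 3 without PBS replicate 1 or without TGFB replicate 3. The CCNG2 call with TGFB (0.22 ± 0.08, adjusted p = 0.0424) was lost under 9 alternatives: upper-quartile scaling, DESeq2 size factors, no low-count filter, and without any of the PBS libraries, TGFB replicate 2 or 3, or EGF+TGFB replicate 3. PIK3IP1 was not called with TGFB (0.60 ± 0.27, adjusted p = 0.0865), but it was with the replicate number as a block (0.59, adjusted p = 0.00167).

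A direct comparison of OSM with EGF left 7 genes higher with OSM and 0 lower, where 28.0% of all genes were called higher and 28.8% lower. The exceptions were IRS2 (0.06, 95% interval -0.21 to 0.33) and ARRDC4. Besides PIK3IP1, the differences ran from 0.37 for FOXO3 to 0.90 for FOXO1, with CCNG2 and INSR at 0.72 each.

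**Figure D2:**
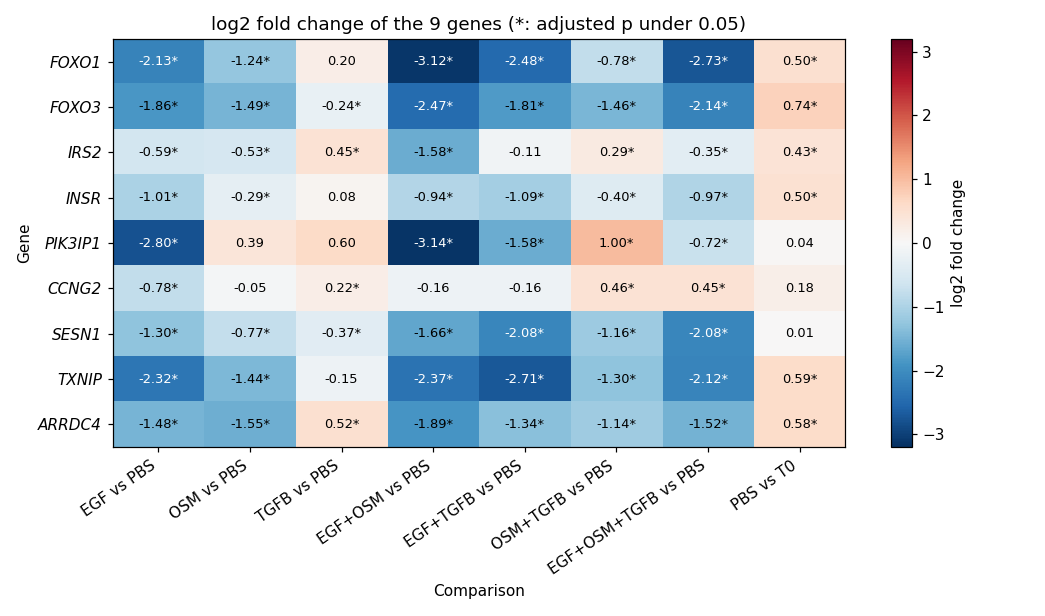
log2 fold change of each gene (rows) in each comparison (columns) as a colour, with an asterisk where the adjusted p was under 0.05. The EGF column is negative for all 9 genes, from -0.59 for IRS2 to -2.80 for PIK3IP1, and the PBS against T0 column is positive for the 6 genes called.

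The comparison of PBS with T0 sets 24 h more in factor-free medium against its start. FOXO1, FOXO3, IRS2, INSR, TXNIP and ARRDC4 were higher in PBS, 6 of the 9, and 0 were lower, where 16.2% of all genes were called higher and 18.9% lower. The median of the 9 was 0.50, against -0.01 for all genes. FOXO3 rose from 178, 172 and 147 CPM in T0 to 286, 276 and 270 CPM in PBS, without overlap. Its change of 0.74 ± 0.08 (adjusted p = 1.35e-07) was the largest of the 9, and 95.1% of genes had a change at or below it. FOXO1 rose from 147, 159 and 139 CPM by 0.50 ± 0.11 (adjusted p = 0.00137), and INSR from 27.9, 30.0 and 25.8 CPM by 0.50 ± 0.08 (adjusted p = 5.01e-05). IRS2 rose by 0.43 ± 0.12 (adjusted p = 0.0093), a call that was lost without T0 replicate 3 (0.38, adjusted p = 0.0504). SESN1 changed by 0.01 ± 0.09 (95% interval -0.18 to 0.21) and PIK3IP1 by 0.04 ± 0.27 (95% interval -0.52 to 0.60), and neither was called.

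The T0 libraries of TXNIP and ARRDC4 were uneven. TXNIP held 1198, 712 and 615 CPM there, and ARRDC4 held 51.0, 34.3 and 31.5 CPM, so T0 replicate 1 was the highest for both. TXNIP rose by 0.59 ± 0.19 in PBS (adjusted p = 0.0215), and ARRDC4 by 0.58 ± 0.15 (adjusted p = 0.00507). Without T0 replicate 1 the changes were 0.93 (adjusted p = 0.000144) and 0.82 (adjusted p = 8.08e-05). The TXNIP call was lost without T0 replicate 2 (0.48, adjusted p = 0.0988), T0 replicate 3 (0.40, adjusted p = 0.129), PBS replicate 1 (0.57, adjusted p = 0.0525) or PBS replicate 2 (0.56, adjusted p = 0.0578). CCNG2 held 70.6, 59.7 and 51.9 CPM in T0 and was not called (0.18 ± 0.08, adjusted p = 0.0915). It was called higher without T0 replicate 1 (0.31, adjusted p = 0.00445) and with the replicate block (0.19, adjusted p = 0.015).

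The levels with EGF were also set against the start. Against T0, EGF lowered 8 genes and raised 0, where 36.6% of all genes were called lower and 32.8% higher. The changes were -2.76 ± 0.32 for PIK3IP1 (adjusted p = 1.51e-07), -1.74 ± 0.20 for TXNIP (adjusted p = 1.35e-07) and -1.63 ± 0.12 for FOXO1 (adjusted p = 4.78e-11). IRS2 was the exception, with 31.7, 34.0 and 29.1 CPM in T0, close above the EGF libraries, and a change of -0.16 ± 0.13 (adjusted p = 0.269).

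The study asks whether responses to combined ligands are the sum of the single responses. With EGF+OSM, 8 of the 9 genes were lower than with PBS and 0 higher, where 39.6% of all genes were called lower and 37.6% higher. The median change of the 9 was -1.89. CCNG2 was the exception (-0.16 ± 0.08, adjusted p = 0.0961), although it fell with EGF alone. It was called lower, which makes 9 of the 9, with upper-quartile scaling (-0.24, adjusted p = 0.0142), with the replicate block (-0.16, adjusted p = 0.0230) and without EGF+OSM replicate 1 (-0.23, adjusted p = 0.0218). A departure is the combination's log2 change less the sum of the single changes, and it was positive and called for 6 genes and negative for 0, where 15.7% of all genes were called positive and 23.0% negative. TXNIP departed by 1.39 ± 0.27 (adjusted p = 0.000364), ARRDC4 by 1.14 ± 0.23 (adjusted p = 0.000432) and FOXO3 by 0.87 ± 0.12 (adjusted p = 1.78e-06). CCNG2 (0.67), SESN1 (0.41) and INSR (0.36) followed. The SESN1 departure was lost without PBS replicate 1, EGF+OSM replicate 2 or OSM replicate 3, and the INSR departure without EGF replicate 1, EGF replicate 3, EGF+OSM replicate 2 or OSM replicate 3.

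TXNIP shows the size of this departure in its levels. It held 271, 253 and 209 CPM with EGF+OSM, overlapping the 267, 265 and 227 CPM with EGF alone. Adding OSM to EGF changed it by -0.05 ± 0.19 (adjusted p = 0.877, 95% interval -0.45 to 0.36), against -1.44 without EGF. FOXO1 and IRS2 fell further when OSM joined EGF, with changes of -0.99 each (adjusted p = 1.22e-06 and 3.17e-06). Their departures of 0.25 ± 0.17 (adjusted p = 0.261) and -0.46 ± 0.18 (adjusted p = 0.0511) were not called. The IRS2 departure was called by DESeq2, with the replicate block (-0.46, adjusted p = 0.00407) and in 7 of the leave-one-out fits. It therefore lay at the threshold. PIK3IP1 departed by -0.73 ± 0.47 and was not called (adjusted p = 0.241), but it was called negative with the replicate block (-0.67, adjusted p = 0.0431). With IRS2 and PIK3IP1, the block called 8 departures, against 6 without it. OSM added to EGF lowered 4 genes, FOXO1, FOXO3, IRS2 and SESN1, and raised CCNG2, where 34.9% of all genes were called. ARRDC4 lay near the threshold there (-0.41 ± 0.17, adjusted p = 0.0576) and was called lower under 8 alternatives, namely upper-quartile scaling, the DESeq2 test, the replicate block and 5 leave-one-out fits (T0 replicate 1 or 3, EGF+OSM replicate 1, EGF+OSM+TGFB replicate 1 or 3).

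**Figure D3:**
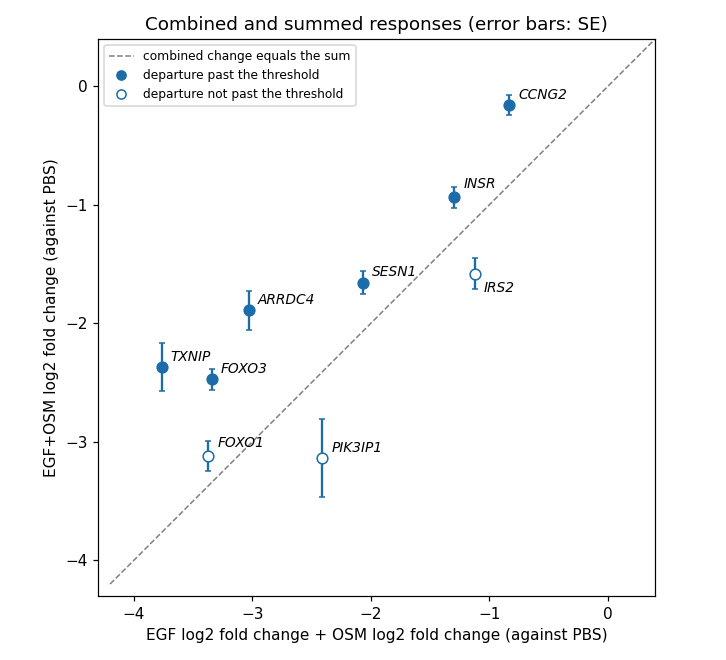
log2 fold change of each gene with EGF+OSM against PBS (vertical axis) over the sum of its changes with EGF and with OSM alone (horizontal axis), with SE bars and the line of equal values. TXNIP (departure 1.39), ARRDC4 (1.14), FOXO3 (0.87) and CCNG2 (0.67) lie furthest above the line, and IRS2 and PIK3IP1 lie below it.

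CCNG2 rose when OSM or TGFB was added to EGF. It held 39.1 to 42.6 CPM with EGF, 68.7, 58.5 and 58.8 CPM with EGF+OSM, and 66.1, 62.9 and 56.8 CPM with EGF+TGFB. With all 3 ligands it held 102, 94.4 and 86.4 CPM, above every PBS library. The rise on adding OSM to EGF was 0.62 ± 0.09 (adjusted p = 2.62e-06), and on adding TGFB to EGF 0.62 ± 0.09 (adjusted p = 1.13e-06). With EGF+OSM+TGFB it was 0.45 ± 0.08 above PBS (adjusted p = 3.14e-05), the 1 member raised by that combination, while the other 8 were lower, where 37.7% of all genes were called higher and 36.7% lower. Among those 8, the call of PIK3IP1 was lost without EGF+OSM+TGFB replicate 1 or 3 or PBS replicate 2, and that of IRS2 without EGF+OSM+TGFB replicate 3. OSM+TGFB, at 95.6, 97.3 and 91.3 CPM, and EGF+OSM+TGFB overlapped and were the highest groups. The difference between them was not called (95% interval -0.18 to 0.17).

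TGFB was added in 4 settings, to PBS, EGF, OSM and EGF+OSM, and PIK3IP1, IRS2, CCNG2 and ARRDC4 had positive changes in all 4. IRS2 and CCNG2 were called in each setting, and PIK3IP1 and ARRDC4 in 2. With EGF+OSM, ARRDC4 was not called, although it was by DESeq2 (0.34, adjusted p = 0.0480) and with the replicate block (0.37, adjusted p = 0.0194). The same held without T0 replicate 1 or 3, EGF+OSM replicate 1 or EGF+OSM+TGFB replicate 3. PIK3IP1 rose from 2.60, 3.24 and 1.87 CPM with EGF+OSM to 12.7, 17.8 and 10.9 CPM with all 3 ligands. The groups were far apart, a change of 2.41 ± 0.34 or 5.32-fold (adjusted p = 3.51e-06). Added to EGF, TGFB brought it from 1.83 to 4.09 CPM up to 7.53, 9.70 and 5.14 CPM, a change of 1.22 ± 0.34 (adjusted p = 0.00415). Added to OSM, it gave 49.4, 49.0 and 37.9 CPM, a change of 0.61 ± 0.26 that was not called (adjusted p = 0.0582). This change was called with the replicate block (0.64, adjusted p = 0.000456). The same held without OSM replicate 2 (adjusted p = 0.0416), OSM+TGFB replicate 3 (adjusted p = 0.0465), or replicate 3 of T0, EGF or EGF+TGFB. Against PBS, OSM+TGFB raised PIK3IP1 by 1.00 ± 0.27 (adjusted p = 0.00244).

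IRS2 rose by 0.48 ± 0.13 on adding TGFB to EGF (adjusted p = 0.00269), by 0.82 ± 0.13 on adding it to OSM (adjusted p = 8.84e-06) and by 1.23 ± 0.13 on adding it to EGF+OSM (adjusted p = 3.66e-08). Its libraries with all 3 ligands held 35.4, 38.3 and 26.9 CPM, all above the 13.0 to 16.3 CPM with EGF+OSM. SESN1 moved the other way and fell in all 4 settings, with changes of -0.37, -0.78, -0.39 and -0.43. Its EGF+TGFB libraries held 10.7, 12.1 and 11.7 CPM and overlapped those with all 3 ligands, 12.4, 10.8 and 11.1 CPM, at the bottom of its range. The changes of INSR on adding TGFB ranged from -0.11 to 0.08 and were called in none of the 4 settings by edgeR. Those of TXNIP were not called in any of the 4 either, although its -0.38 on adding TGFB to EGF was called with the replicate block (-0.39, adjusted p = 0.0161).

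**Figure D4:**
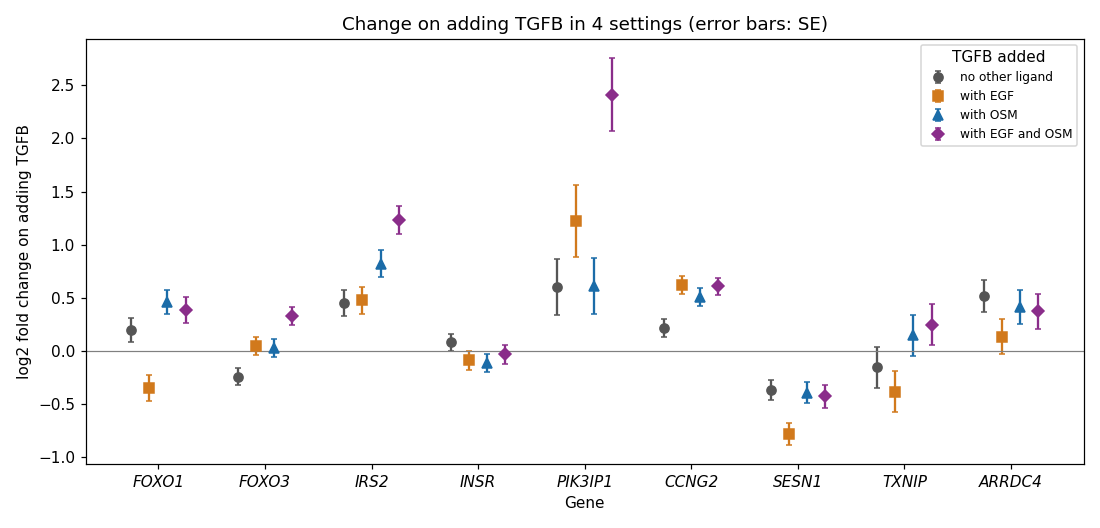
log2 fold change of each gene on adding TGFB to PBS, EGF, OSM or EGF+OSM (4 points per gene, error bars SE). PIK3IP1 is highest when TGFB joined EGF+OSM (2.41), IRS2 and CCNG2 are above 0 in all 4 settings, and SESN1 is below 0 in all 4.

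Against PBS, EGF+TGFB lowered 7 of the 9 and raised 0, where 37.5% of all genes were called lower and 36.2% higher. IRS2 (-0.11 ± 0.12, adjusted p = 0.416) and CCNG2 (-0.16 ± 0.08, adjusted p = 0.10) were not called, although CCNG2 was with the replicate block (adjusted p = 0.0240) and with upper-quartile scaling (-0.25). OSM+TGFB lowered 6 and raised 3, PIK3IP1, CCNG2 and IRS2, where 31.8% of all genes were called lower and 34.2% higher. The IRS2 call (0.29 ± 0.12, adjusted p = 0.0431) was lost with upper-quartile scaling, with DESeq2 size factors, without the filter and in 7 leave-one-out fits (T0 replicate 1, any PBS library, OSM+TGFB replicate 1 or 2, EGF+TGFB replicate 3), and the change was 0.14 without OSM+TGFB replicate 1. Adding TGFB to EGF raised 3 of the 9 and lowered 2 (54.6% of all genes called), and adding it to OSM raised 4 and lowered 1 (51.6% called). Added to EGF+OSM, it raised 5 and lowered 1, where 61.1% of all genes were called. The FOXO factors differed between settings. FOXO1 was 0.35 ± 0.12 lower with EGF+TGFB than with EGF (adjusted p = 0.0177), with 40.5, 36.9 and 35.8 CPM. It was 0.46 ± 0.12 higher with OSM+TGFB than with OSM (adjusted p = 0.00188), with 134, 138 and 96.1 CPM against 70.9 to 104 CPM, which overlap. The fall on adding TGFB to EGF was lost without the low-count filter (-0.32) and without EGF replicate 3 (-0.32), EGF+TGFB replicate 2 (-0.33) or EGF+TGFB replicate 3 (-0.27). Added to EGF+OSM, TGFB raised FOXO1 by 0.34 to 0.43 over the alternatives, and FOXO3 by 0.27 to 0.39. Both rises were called in every alternative (adjusted p at most 0.0468 and 0.0175). FOXO3 was not called in any alternative when TGFB was added to EGF or to OSM. The ARRDC4 rise on adding TGFB to OSM (0.41 ± 0.16, adjusted p = 0.039) was lost with upper-quartile scaling, without the low-count filter and on leaving out any of its 6 libraries, with changes of 0.37 to 0.45.

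Departures of EGF+TGFB were called for 3 of the 9 genes, where 29.8% of all genes were called. They were CCNG2 (0.40 ± 0.12, adjusted p = 0.0127), FOXO1 (-0.55 ± 0.16, adjusted p = 0.0144) and SESN1 (-0.41 ± 0.14, adjusted p = 0.0287). The SESN1 departure was lost without the low-count filter and in 6 leave-one-out fits (EGF, EGF+TGFB and TGFB replicate 1, TGFB replicate 2, and PBS and EGF+TGFB replicate 3). Outside these 3, the FOXO3 departure was called without the filter (0.33, adjusted p = 0.0436), by DESeq2 (0.28) and with the replicate block (0.29, adjusted p = 0.00955). It was also called without EGF replicate 2, or replicate 3 of T0, OSM, EGF+TGFB or OSM+TGFB. The replicate block called that of PIK3IP1 too (0.63, adjusted p = 0.0443). For OSM+TGFB, edgeR called 0 departures among the 9 (23.3% of all genes), with 3 at an unadjusted p under 0.05 and 0 by DESeq2. That count was 1 without T0 replicate 1, T0 replicate 3 or OSM replicate 2, and 3 without OSM+TGFB replicate 3. The 3-way interaction, what remains of the triple response after single ligands and pairs, was called by edgeR for 0 of the 9 (3.90% of all genes), with 0 at an unadjusted p under 0.05 and 0 by DESeq2. Its widest interval was that of PIK3IP1, 1.18 (95% interval -0.11 to 2.47).

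The fall with EGF was also measured where another ligand was present. EGF+OSM was lower than OSM for 7 of the 9 and higher for 0, where 31.8% of all genes were called lower and 29.9% higher. PIK3IP1 changed most, at -3.52 ± 0.33 (adjusted p = 1.63e-08), and CCNG2 and ARRDC4 were not called, although ARRDC4 was with the replicate block (-0.35, adjusted p = 0.0247). EGF+TGFB was lower than TGFB for 9 of the 9, where 35.5% of all genes were called lower and 33.9% higher, with FOXO1 at -2.68 ± 0.12 (adjusted p = 1.93e-14) and TXNIP at -2.55 ± 0.20 (adjusted p = 5.69e-10). EGF+OSM+TGFB was lower than OSM+TGFB for 7 and higher for 0, where 25.9% of all genes were called lower and 26.3% higher. FOXO1 again changed most, at -1.96 ± 0.12 (adjusted p = 2.76e-11), and CCNG2 and ARRDC4 were not called. ARRDC4 was called lower by DESeq2 (-0.38, adjusted p = 0.0274) and with the replicate block (-0.39, adjusted p = 0.0125). The same held without T0 replicate 1 or 3, EGF+OSM replicate 3 or EGF+OSM+TGFB replicate 1. OSM added to EGF+TGFB raised CCNG2, TXNIP and PIK3IP1 and lowered FOXO3, where 26.4% of all genes were called. The TXNIP and PIK3IP1 calls were lost without the filter, EGF+TGFB replicate 1 or 3, or EGF+OSM+TGFB replicate 1 or 2, which left 2 of the 4, and that of PIK3IP1 also without EGF+OSM replicate 1. IRS2 was called there with the replicate block alone (-0.24, adjusted p = 0.0352). OSM added to TGFB lowered 6 and raised CCNG2, where 56.6% of all genes were called, with ARRDC4 at -1.66 ± 0.16 (adjusted p = 9.68e-09), FOXO3 at -1.22 ± 0.08 and TXNIP at -1.14 ± 0.19. The CCNG2 call was lost with upper-quartile scaling and without TGFB replicate 1 or OSM+TGFB replicate 2, and PIK3IP1 was called with the replicate block (0.40, adjusted p = 0.0155).

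The 4 lists that follow were compiled from general knowledge with earlier results of these data known, so their counts are descriptions. Of 26 other genes known to be activated by FOXO factors, 23 were tested, and EGF lowered 20 (38.6% of all genes called lower) and raised 1 (34.9% called higher), with a median of -1.73. FBXO32, a ubiquitin ligase of muscle atrophy, fell from 268 ± 5.33 to 7.32 ± 0.984 CPM, a change of -5.19. PDK4, which restrains pyruvate oxidation, fell from 481 ± 37.6 to 21.2 ± 1.74 CPM, a change of -4.50. PRDX3, a mitochondrial peroxidase, rose by 0.79. OSM lowered 14 (29.8% of all genes) and raised 4 (33.5%), with a median of -0.26. PDK4 (-3.03) and the receptor ERBB3 (-1.75) fell, and BNIP3 (1.31), a mitophagy receptor also induced by hypoxia, and SOD2 (1.17), a mitochondrial superoxide dismutase, rose. TGFB raised 4 (19.9% of all genes), led by GADD45A (1.32) and TNFSF10 (1.30), and lowered 3 (15.8%), led by BCL6 (-0.77) and PDK4 (-0.72), with a median of -0.11. In PBS against T0, 9 were higher (16.2% of all genes) and 1 lower (18.9%), with a median of 0.24.

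In the insulin, PI3K and AKT pathway, 26 of 27 genes were tested. EGF raised 8, where 34.9% of all genes were called higher, and lowered 15, where 38.6% were called lower, with a median of -0.31. The kinase SGK3 (1.16) and the phosphatase PTPN1 (1.11) rose most, and the PI3K regulatory subunit PIK3R3 (-1.68) and the receptor adaptor GRB14 (-1.19) fell most. OSM raised 8 (33.5% of all genes) and lowered 15 (29.8%), with a median of -0.20. Its largest changes were those of IGF1R (1.52), the receptor of insulin-like growth factor, SGK1 (0.93), GRB14 (-2.16) and PIK3R3 (-1.55). TGFB raised 14 (19.9% of all genes) and lowered 5 (15.8%), with a median of 0.20. GRB10 (1.05), an adaptor that inhibits the insulin receptor, and IGF1R (0.98) rose most, and GRB14 (-0.83) and PIK3R3 (-0.35) fell most. PBS against T0 had 10 higher (16.2% of all genes) and 3 lower (18.9%).

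Paralogues of the 9 genes numbered 11, all tested, and the list shares SESN3 and IRS1 with the lists above. EGF lowered 9 (38.6% of all genes called lower) and raised 1 (34.9% called higher), IRS1 (0.41), with a median of -1.55. The largest falls were those of the arrestins ARRDC5 (-2.48), which held under 1 CPM in every group, and ARRDC3 (-2.09). OSM lowered 9 (29.8% of all genes) and raised 0 (33.5%), with ARRDC5 at -3.40 and ARRDC2 at -2.05. TGFB raised 3 (19.9% of all genes), led by IRS1 (0.91) and SESN3 (0.78), and lowered 2 (15.8%), ARRDC3 (-0.32) and ARRDC1 (-0.30). PBS against T0 had 4 higher (16.2%) and 1 lower (18.9%). IRS1 and IRS2 had opposite signs with EGF.

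Of 12 glucose-sensing and thioredoxin genes, 12 were tested. EGF raised 6 (34.9% of all genes called higher) and lowered 6 (38.6% called lower), and OSM raised 6 (33.5%) and lowered 5 (29.8%). The glucose transporter SLC2A3, which held 0.573 ± 0.218 CPM with PBS, rose by 1.47 with EGF and by 3.26 with OSM. The transporter SLC2A1 (-1.42) and the thioredoxin reductase TXNRD1 (-1.13) fell with EGF, while the hexokinase HK2 rose by 0.70. With OSM, PFKFB3, an activator of glycolysis, rose by 1.74, and TXNRD1 (-1.46) and MLXIPL (-1.11), which held under 1 CPM, fell. TGFB raised 3 (19.9%), led by KLF10 (0.79) and MLXIP (0.74), which encodes MondoA, and lowered 6 (15.8%), led by HK2 (-1.16) and SLC2A1 (-0.65). PBS against T0 had 3 higher (16.2%) and 2 lower (18.9%).

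The 9 genes differed in how closely they followed each other over the 9 group means, measured by Pearson's r of log2(CPM + 0.5). This is a description over 9 points that share libraries, with no p-value. FOXO1 and FOXO3 had r = 0.95, FOXO1 and TXNIP 0.95, and TXNIP and ARRDC4 0.89, while CCNG2 had r of -0.05 to 0.68 with the others. Among 9271 genes with a mean of at least 10 CPM, those most like FOXO1 were MTSS1, SNN and PCIF1, and those most like FOXO3 were NCOA2, HIPK2 and TLE1. IRS2 was followed most closely by DDAH2, COL1A1 and NSG1, INSR by ZNF33B and ZNF33A, and PIK3IP1 by GBP2, LIFR and MNT. The nearest to CCNG2 were PHF11, TBC1D13 and IRF9, and to SESN1 HIGD2A, IL6R and PDCD4. TXNIP was nearest to KAT6B, CIR1 and ANKHD1-EIF4EBP3, and ARRDC4 to PGRMC2, its paralogue ARRDC2 and RTN1. The r of the nearest gene ranged from 0.978 for CCNG2 and IRS2 to 0.998 for SESN1.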

How the data were processed

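MCF10A RNA was measured in 27 libraries. The authors deposited whole-number values per Ensembl gene, treated here as estimated counts (expected counts) with no further rounding. The authors' processing used kallisto 0.46.2, Trim Galore 0.4.3, cutadapt 1.10 and FastQC 0.11.5, with GRCh38.p5, per the submitters' processing notes. The annotation and any rounding are not given in the sources used here. Library totals of 30.1 to 52.9 M counts mean that the spread between libraries sets the precision of most values.

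The 40487 rows were summed by symbol over the whole table (36536 genes). Of the rows, 7165 had no symbol, held 0.324% of the counts and stayed in under their Ensembl identifiers. edgeR 4.0.16 in R 4.3.3 was run with filterByExpr by group, TMM scaling and a robust quasi-likelihood fit with 1 mean per group (18 residual degrees of freedom). Adjusted p-values (Benjamini-Hochberg) cover all 15575 genes. Each SE was derived from edgeR's test, as the absolute log2 change divided by the square root of its F statistic. The 95% intervals use this SE and the t quantile at 18 degrees of freedom, so they are approximate. The procedure was tested on simulated counts in which a small set of genes changed in the EGF group alone. They held no replicate effect and no wide shift of the kind seen here, so neither was covered. Alternatives were upper-quartile scaling, DESeq2 size factors, no filter, DESeq2 1.42.0, rows as deposited, a replicate block and each library left out.

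Titles share replicate numbers. Samples with the same number deviated together, with every correlation over 0.1, in 13 of 36 pairs of groups, and blocked values are given beside results of such pairs where the call changed. The members and gene lists were chosen with earlier results of these data known. In the lists, genes named are the 2 largest called changes in each direction with EGF, OSM and TGFB. Likeness used a pseudocount of 0.5 CPM, and 1 gene found by it is not reported here. In the list of FOXO-activated genes, TRIM63 and PCK1 were under the filter and G6PC1 was not matched.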

Additional observations from a re-analysis of the deposited data

Results flagged for a closer look

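For 3 responses, the effect of a ligand had opposite signs without and with EGF, and the difference itself passed edgeR's quasi-likelihood test. CCNG2 changed with OSM by -0.05 without EGF and by 0.62 with EGF, a difference of 0.67 ± 0.12 (SE, 3 libraries per group, adjusted p = 6.81e-05). INSR changed with OSM by -0.29 without EGF and by 0.07 with EGF, a difference of 0.36 ± 0.12 (adjusted p = 0.0219). FOXO1 changed with TGFB by 0.20 without EGF and by -0.35 with EGF, a difference of -0.55 ± 0.16 (adjusted p = 0.0144). Of the 6 effects, the CCNG2 effect without EGF, the INSR effect with EGF and the FOXO1 effect without EGF were not called on their own.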

How the results depend on the processing

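The 207 values of the 9 genes in 23 comparisons were recomputed under 33 alternatives, and 168 kept their side of the threshold in all of them. None of the 207 (0) reversed, where a reversal is a change of sign with a call in at least 1 of the 2 fits. Values called in neither fit could cross 0, as PIK3IP1 did in PBS against T0 (-0.19 to 0.25 over the alternatives). Rows as deposited changed 0 calls, DESeq2 size factors 2, the DESeq2 test 5, upper-quartile scaling 7 and no filter 8. The replicate block changed 21, all 21 to a call. The counts of called members that moved by over 1.5 times follow, and the cause was not tested. The TGFB count of 5 ranged from 3 to 5 in the leave-one-out fits. The count for EGF+OSM+TGFB against EGF+TGFB, 4, became 2 without the filter and ranged from 2 to 5. With the replicate block, the departures of EGF+TGFB went from 3 to 5, those of OSM+TGFB from 0 to 3 and the 3-way interaction from 0 to 1. The OSM+TGFB departures ranged from 0 to 3 in the leave-one-out fits. In 24 of 36 pairs of groups every sample correlated best with its own number, with a mean correlation of 0.133 between samples of the same number and -0.0661 otherwise. The lowest level of a member in any library was 1.83 CPM, for PIK3IP1 with EGF. The SE of this gene was 0.32 for EGF against PBS and 0.27 for OSM against PBS, where its level was higher. The part of depth in its spread was not tested.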
